A study of Mus musculus with 6 samples.

Results

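The cytosolic ribosomal proteins form, together with ribosomal RNA, the large and the small subunit of the ribosome that translates nuclear-encoded messenger RNA. Their genes were taken from the deposited count table by symbol: every gene beginning Rpl or Rps and a digit, with Rplp0, Rplp1, Rplp2, Rpsa and Fau, but without the S6 kinases (Rps6k) and without rows marked as pseudogenes by "-ps". This gave 90 of 22601 genes. Of these, 78 were the canonical genes, 46 of the large subunit (including the 3 stalk genes) and 32 of the small subunit. A further 11 were copies of such genes (for example Rpl22l1, Rpl39l and Rps27l), and 1, Rps19bp1, encodes a nucleolar protein that binds a ribosomal protein and is not itself one. Among the copies, Rpl32l, Rpl6l, Rpl37rt and Rps4l carry no "-ps" in their symbols but are annotated by GENCODE as processed pseudogenes. No expression value was used to choose them.

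Ribosomal proteins are needed in near equal numbers, and cells adjust them together. Many of their mRNAs begin with a run of pyrimidines, the 5′ terminal oligopyrimidine (TOP) motif, through which mTOR and the RNA-binding protein Larp1 control their translation. Osteoclasts, the bone-resorbing cells that form when macrophages fuse under RANKL and M-CSF, make large amounts of secreted enzymes such as cathepsin K.

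RNAseq was done on 6 libraries (3 WT and 3 Slc37a2 KO) in a study that asked how the sugar transporter Slc37a2 acts in osteoclasts. The sample labels describe osteoclasts grown from bone marrow macrophages (BMMs) over 5 days with RANKL at 10 ng/ml and M-CSF at 2 ng/ml. The results section of the study likewise places its RNAseq comparison in osteoclasts of both genotypes. The methods of the study, however, describe RNAseq on RNA of whole leg bones, femur and tibia, from mice of both sexes. The KO mice carried the KOMP tm2a gene-trap allele of Slc37a2, made from 1 clone of embryonic stem cells and not restricted to a cell type, and both genotypes were on the C57BL/6N background. All column headings give an age of 11 weeks and an animal number, by which libraries are named here (K090, L080 and L082 for WT, K089, L078 and L081 for KO), and the letter F in them was not used to assign a sex.

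Between 27552183 and 42522292 reads were counted in a library, and no library was a duplicate of another. Levels below are CPM (counts scaled to a common library size) after TMM scaling of library size. Slc37a2 itself fell from 2150 ± 292 CPM in WT to 38.1 ± 6.66 CPM in KO (SD, n = 3 each), with a log2 fold change of −5.82 (adjusted p = 0.000707). Here and below, p-values are from the quasi-likelihood test of edgeR, and adjusted values are those of Benjamini and Hochberg over all tested genes. All 10 osteoclast markers passed the filter on low counts, with sums of 39900 to 70400 CPM. Markers of red cells and B cells stayed at or below 0.0674 and 0.282 CPM in sum in every library and neutrophil markers at or below 1.24 CPM, while 8 osteoblast and stromal markers summed to 638 to 1980 CPM. The labels call the libraries biological replicates and do not say more, so p-values measure the spread between these samples.

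The transcription starts of ribosomal protein genes are shown here because a pyrimidine run at the start is the mark of TOP mRNAs. The windows are from RefSeq on GRCm38.p6, the coordinates cover the bases printed, and capitals mark the longest pyrimidine run that touches the 10 bases on either side of the annotated start. The first 5 genes have a run of 10 or more bases and are members whose values are described below: Rpl27a, Rpl35 and Rplp2 were low in WT library L080, Rpl14 had the tightest replicates, and Rps6 is the S6 kinase substrate. They lie at chr7:109519186-109519215 (plus strand), chr2:39005116-39005143 (minus strand), chr7:141447641-141447664 (plus strand), chr9:120571504-120571527 (plus strand) and chr4:86857350-86857373 (minus strand).
Rpl27a: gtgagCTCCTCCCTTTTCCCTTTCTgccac
Rpl35: ccccgCCCTTTCCTCTTTCTCTCgaacc
Rplp2: cagcgTCTTCCTTTCgccgccgga
Rpl14: gcgggCCCTCTCTCTTCTCgctga
Rps6: tcgggCCTCTTTTTCgtgacgcct
The next 3 have runs of 3 bases or fewer near the annotated start, and are shown for contrast. They are Rpl23 at chr11:97782430-97782453 (minus strand), Rpl5 at chr5:107900518-107900541 (plus strand) and Rps3 at chr7:99483696-99483719 (minus strand).
Rpl23: cgaggTCCggtcacgtggctgagt
Rpl5: cgtcgCTTgcgtgctggtggtgct
Rps3: aagggTCgccgcgctgcgcggcgt

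Of the 78 canonical genes, 58 had such a start in RefSeq. A run of at least 6 pyrimidines touched the 10 bases on either side of the start in 33 of them (56.9%). The same held for 3011 of 10542 other tested genes (28.6%), and the median run was 6.5 against 4 bases. A run counted in this way need not include the start itself. The annotated first base was a C in 21 (36.2%), against 15.1% of the other genes. In the 300 bases from 250 before to 50 after the start, read on both strands, CCGGAA was present in 29 of the 58 against 28.0% of the other genes, AAGATGG (which can share its first bases with CCGGAA) in 15.5% against 7.33% and TATAAA in 8.62% against 7.21%. These are matches of letters at annotated starts, and the annotated start may lie some bases from the one used in osteoclasts. The 33 genes with a run and the 25 without had median log2 fold changes of 0.021 and 0.028 (KO over WT) and median levels of 409 and 426 CPM per kilobase. Their median SD across libraries was 0.0524 and 0.0538 on the log2 scale, after subtraction of the library medians described below.

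The canonical genes were among the most abundant of these libraries. Per kilobase of mRNA, which allows levels of different genes to be compared, they ran from 70 to 1680 CPM per kilobase, with a median of 435 and the middle of the range (quartiles) between 337 and 617. All 78 lay above 65.3 CPM per kilobase, the 90th percentile of 12170 tested genes with a known length, whose median was 9.36. Of the 78, 63 lay within 2-fold of their own median. Their mRNAs are short, with a median of 705 nucleotides against 2830 over all those genes, and the genes are spread over 20 chromosomes, with 14 on chromosome 7 and 4 on chromosome X.

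The highest levels per kilobase were those of Rplp1 (1680), Rps12 (1420), Rplp2 (1070), Rps29 (1000) and Rpl4 (917). Rplp1 and Rplp2 encode the acidic proteins of the stalk, which recruits translation factors, and the third stalk gene, Rplp0, stood at 878. The lowest were Rps20 (70), Rpl35 (136), Rpl27 (144) and Rpl27a (174). The value of Rps20 rests on the mRNA model that was used, its shortest principal protein-coding transcript. At 3706 nucleotides that model is far longer than those of the other genes. The models of Rpl27a (1158 nucleotides) and Rpl35 (946) were also longer than the median of 705. Other models were not examined for any gene. Reads from processed pseudogenes and from near-identical copies may be split or shared in ways that the sources do not state, so a level of a single gene carries that uncertainty.

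**Figure D1:**
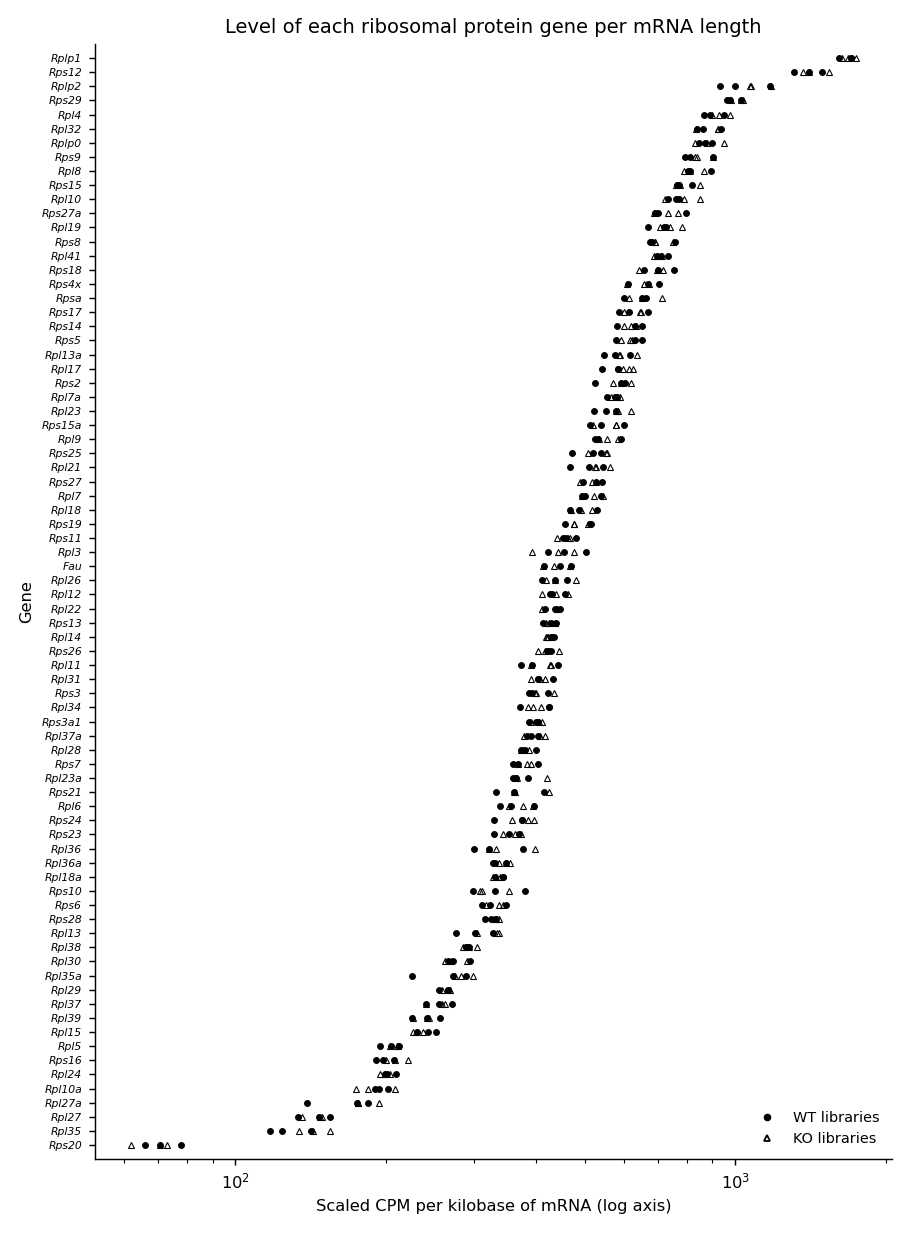
Level of each of the 78 canonical genes in CPM per kilobase of mRNA (log axis), ordered by the mean, with 1 point per library (filled circles WT, open triangles KO). The 6 points of a gene lie close together beside the range between genes, from 70 for Rps20 to 1680 for Rplp1.

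The share of all counts that fell on the 90 genes was close to 3% in every library. It was 3.32% in K090, 3.04% in L080 and 2.96% in L082 among WT libraries, and 2.78% in K089, 3.27% in L078 and 3.07% in L081 among KO libraries. The genotypes overlapped, at 3.11% ± 0.189 in WT and 3.04% ± 0.246 in KO (SD, n = 3 each), and the highest library exceeded the lowest by a factor of 1.19. The widest 95% Wilson interval of a single library reached 0.00641 percentage points to either side, for counting error only, so the libraries differed by far more than counting. The 10 most abundant genes, among them the osteoclast enzymes Mmp9, Acp5 and Ctsk, held 7.13% of the counts in K090 and 10.8% in K089, the libraries with the highest and the lowest ribosomal protein share. Without these 10 genes the share ran from 3.12% (K089) to 3.58% (K090).

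The canonical genes moved together in part, most clearly in K090 and L081 and least in L078. For each gene the log2 CPM in a library was set against the gene's mean over the 6 libraries. The median of this deviation over the 78 genes was 0.06 in K090, −0.04 in L080 and −0.045 in L082 (WT), and −0.042 in K089, 0.016 in L078 and 0.062 in L081 (KO). So 1 WT and 1 KO library stood high, and both genotypes also had a low library. In K090, 69 of the 78 genes were above their own mean and in L081 71, against 24 in L080, 13 in L082, 14 in K089 and 48 in L078.

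The distance from the lowest to the highest library was 0.107 on the log2 scale, a difference of 7.67%. These 6 library medians account for 41.6% of the sum of squares of the 78 genes about their means. Both subunits moved the same way in every library, with medians of 0.06 and 0.062 in K090 and of −0.041 and −0.048 in L082 for the large and the small subunit. The summed count of the small subunit was 73.0%, 72.7% and 72.3% of that of the large subunit in WT and 71.8%, 72.8% and 71.9% in KO (72.7% ± 0.382 and 72.1% ± 0.575, SD, n = 3 each), so the balance of the subunits stayed within 71.8% to 73.0% while the level of both moved. With library totals alone in place of TMM scaling, the distance between libraries was 0.262, with K090 highest at 0.117 and K089 lowest at −0.145. L078 was then at 0.101 and L081 at −0.0062, so both the size of the common shift and which libraries stand high depend on the scaling.

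**Figure D2:**
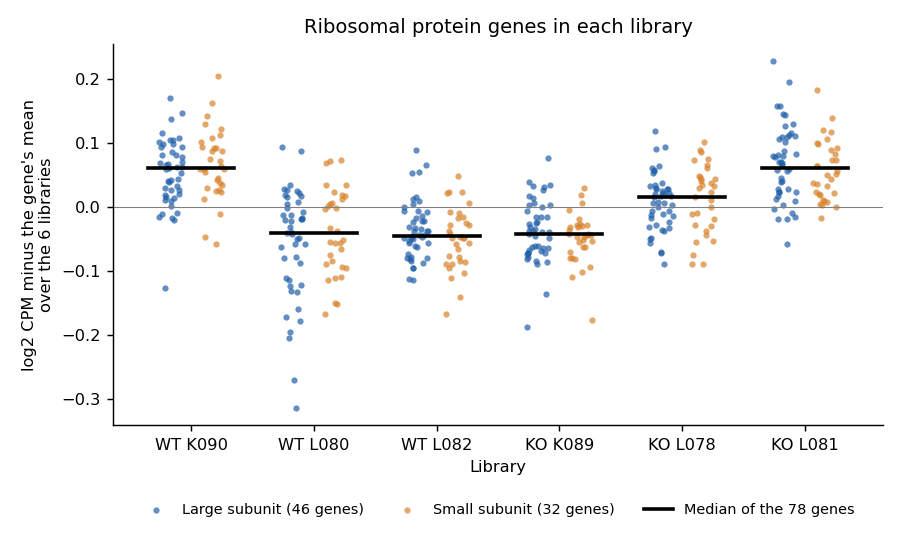
Deviation of each canonical gene from its own mean over the 6 libraries (log2 CPM), by library, with large subunit genes in blue, small subunit genes in orange and the median of the 78 genes as a black bar. Bars stand at about 0.06 in WT K090 and KO L081 and near −0.04 in WT L080, WT L082 and KO K089, and both subunits move with them.

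After the common shift was subtracted, the median SD of a canonical gene over the 6 libraries fell to 0.052 from 0.0728. It was smallest for Rpl7 (0.0149) and largest for Rpl27a (0.148). The 6 canonical genes that kept the most variation, named after their values were seen, were Rpl27a, Rpl35, Rpl35a, Rpl36, Rpl3 and Rps10. WT library L080 held the lowest residual of Rpl27a (−0.274), Rpl35a (−0.23) and Rpl36 (−0.132), and it was also lowest for Rplp2 (−0.156). For Rpl35 it was low (−0.165) beside K090 (−0.187). Genes of both subunits were at either end in this library: Rps24 and Rps2 of the small subunit were low (−0.127 and −0.111), while Rpl15 and Rpl34 of the large subunit (0.134 and 0.127) and Rps19 and Rps14 of the small subunit (0.114 and 0.112) were high. These 6 were also named after their values were seen.

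Rpl27a shows the size of this. It had 203, 161 and 213 CPM in WT libraries K090, L080 and L082 and 204, 204 and 224 CPM in KO libraries K089, L078 and L081. The WT library L080 stood apart at the low end, and the other 5 lay between 203 and 224 CPM. Rplp2 had 495, 393 and 421 CPM in WT and 451, 452 and 497 CPM in KO, and the ratio of Rplp1 to Rplp2 was 217% in L080 against 172% to 191% in the other 5 libraries.

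The replicates of the canonical genes were tight beside other genes. The SD of log2 CPM within a genotype had a median of 0.0769, against 0.116 for the 2373 other genes of the same range of levels (88.7 to 1410 CPM) and 0.166 for all 13394 other tested genes. Counting alone gives a median of 0.014 for the canonical genes, so their replicates spread a median of 5.56 times as far as counting does, and 77 of 78 exceeded counting. The exception was Rpl14, at 437, 434 and 432 CPM in WT and 421, 424 and 426 CPM in KO, with an SD of 0.00876 against 0.0123 from counting. The biological coefficient of variation of the fit had a median of 9.65% for canonical genes, 10.6% for other genes of like level and 15.3% for all others. Such tightness was not particular to ribosomal proteins. For the 32 translation factors described below, the median SD was 0.0667 and the median coefficient 9.46%. For the 19 regulatory genes also described below, they were 0.0765 and 9.36%.

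**Figure D3:**
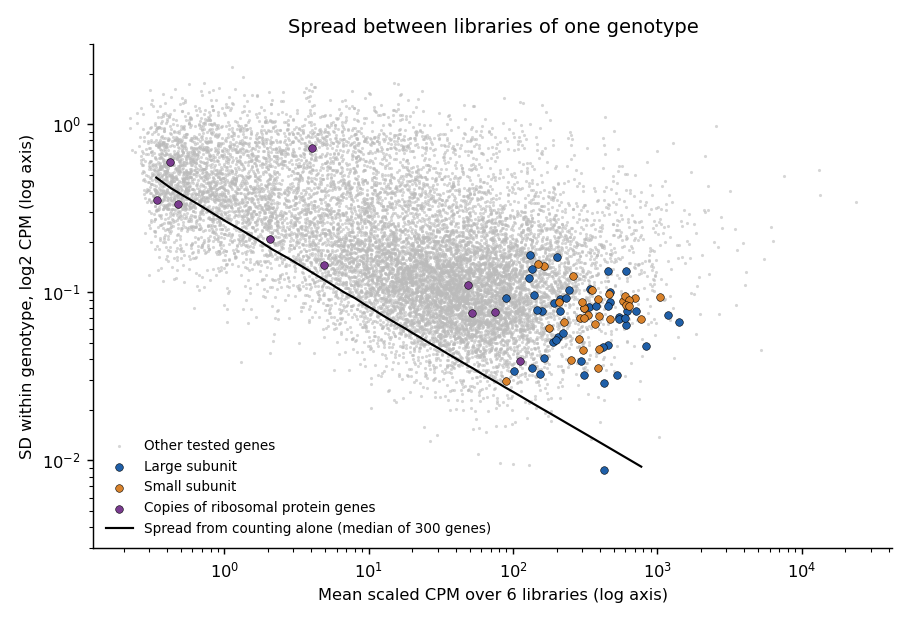
SD of log2 CPM within genotype against mean level for tested genes (both axes log), with large subunit genes in blue, small subunit genes in orange, copies in purple and other genes in grey. The black line is the spread that counting alone gives, and the canonical genes lie at 88.7 to 1410 CPM with a median SD of 0.0769, above that line except for Rpl14.

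For the comparison of KO with WT, 89 of the 90 genes passed the filter on low counts among 13483 tested. Rpl32l, a copy of Rpl32, did not, with 11, 5 and 7 counts in WT and 7, 23 and 7 in KO. None of the 89 was called: 0 had an adjusted p below 0.05 (edgeR quasi-likelihood test, Benjamini-Hochberg), where the background was 1 gene, Slc37a2, or 0.00742% of those tested. The adjusted p ran from 0.969 to 0.999. At an unadjusted p below 0.05 the number was also 0 of 89, against 0.712% of all tested genes, and both numbers were 0 when the likelihood ratio test of edgeR or the Wald test of DESeq2 was used instead. The limits used in the study, a log2 fold change beyond 1.5 in either direction and an adjusted p under 0.05, were met by 0.

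The intervals say how large a difference these libraries leave room for. The 95% confidence interval lay within a 1.5-fold change in either direction for all 78 canonical genes and for 84 of the 89 tested genes (94.4%), against 61.1% of all tested genes and 85.6% of other genes of like level. The 5 others were low copies. The median standard error was 0.0762 for canonical genes, 0.091 for other genes of like level and 0.137 for all others. For 88 of 89 genes the interval excluded a log2 change of 1.5 in either direction, the exception being Rpl39l (−1.51 to 0.89).

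The log2 fold changes of the canonical genes were small, with a median of 0.021, 49 above 0 and 29 below, beside a median of −0.023 over all tested genes and 0.031 over the 2373 other genes of like level. The median was 0.0219 for the large subunit (29 above, 17 below) and 0.0178 for the small subunit (20 above, 12 below). The sign of the median depends on the scaling, since it was −0.0338 with library totals alone, where the median of all genes was −0.0776. Relative to the median of all genes it was 0.044 with TMM and between 0.0425 and 0.0446 under the other scalings and with no filter. It was −0.00069 without KO library L081, 0.0192 without WT library L080, 0.0201 without WT library L082 and 0.0701 without WT library K090, so single libraries decide this distance.

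**Figure D4:**
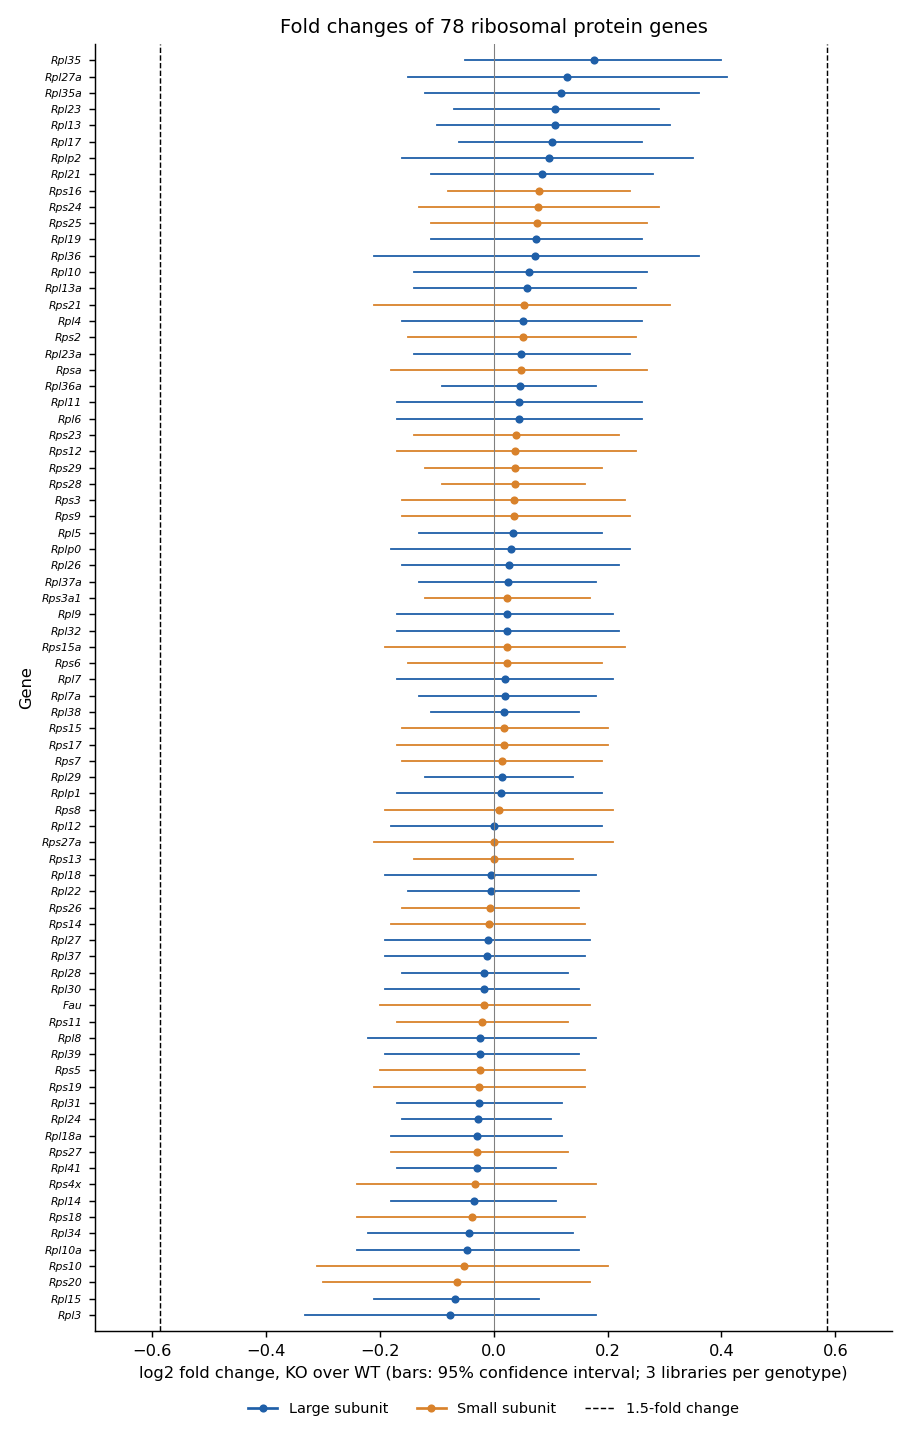
log2 fold change of KO over WT for each of the 78 canonical genes, ordered by size, with 95% confidence intervals from edgeR's quasi-likelihood fit on 3 libraries per genotype (blue large subunit, orange small subunit). Values run from −0.077 for Rpl3 to 0.18 for Rpl35, every interval crosses 0, and all lie inside the dashed lines of a 1.5-fold change.

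Both ends of the order were genes of the large subunit. Rpl35 had 117, 111 and 134 CPM in WT and 135, 127 and 146 CPM in KO, so the KO libraries overlapped the highest WT library. Its log2 fold change was 0.18 (standard error 0.093, 95% interval −0.05 to 0.40, unadjusted p = 0.105 and adjusted p = 0.969, edgeR quasi-likelihood test, Benjamini-Hochberg), the lowest p of all 89. Without WT library L082 its log2 fold change was 0.282, with an unadjusted p of 0.0245 and an adjusted p of 0.825 (edgeR quasi-likelihood test, Benjamini-Hochberg), and over all alternatives its adjusted p ran from 0.262 to 1. Rpl27a (0.13) and Rpl35a (0.12) followed, both with the low value in WT library L080 described above. Rpl35a had 142, 111 and 134 CPM in WT and 135, 139 and 147 CPM in KO.

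Rpl3, whose protein lies near the centre where peptide bonds form, was at the other end. It had 679, 614 and 571 CPM in WT and 530, 643 and 596 CPM in KO, a log2 fold change of −0.077 (95% interval −0.33 to 0.18). The genotypes overlapped, and without KO library K089, the lowest, the value was 0.0161. Rps10 and Rps20 of the small subunit were at −0.051 and −0.064.

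In 3 genes the KO and WT libraries did not overlap, where 4.31% of all tested genes showed this. The KO libraries lay above WT for Rpl23 and Rpl17, where the background was 1.5%, and below for Rpl14, where it was 2.81%. Rpl23, 1 of the ribosomal proteins that bind Mdm2, had 611, 552 and 585 CPM in WT and 618, 612 and 654 CPM in KO, so that the nearest libraries of the genotypes were 611 and 612 CPM. Rpl17 had 451, 420 and 451 CPM in WT and 462, 475 and 483 CPM in KO. Their log2 fold changes were 0.11 (95% interval −0.07 to 0.29) and 0.10 (−0.06 to 0.26), and that of Rpl14 was −0.035 (−0.18 to 0.11). An exact permutation test of 3 libraries against 3 cannot give a two-sided p below 0.1.

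Among the stalk genes, Rplp0 had 1220, 1180 and 1150 CPM in WT and 1190, 1130 and 1290 CPM in KO. Rplp1 had 850, 851 and 803 CPM in WT and 816, 838 and 871 CPM in KO. The genotypes overlapped for both, with log2 fold changes of 0.031 (95% interval −0.18 to 0.24) and 0.013 (−0.17 to 0.19), and for Rplp2 the value was 0.10 (−0.16 to 0.35).

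Several members act outside the ribosome as well. Rpl5 and Rpl11, which together with a small ribosomal RNA bind and inhibit Mdm2 when ribosome assembly fails, had 417 ± 17.4 and 335 ± 29.7 CPM in WT and 427 ± 8.6 and 346 ± 17.9 CPM in KO (SD, n = 3). Their log2 fold changes were 0.034 (95% interval −0.13 to 0.19) and 0.045 (−0.17 to 0.26). Rps6 had 305, 273 and 284 CPM in WT and 278, 296 and 301 CPM in KO, a log2 fold change of 0.023 (−0.15 to 0.19). Rpl13a, a component of an interferon-dependent inhibitor of translation, was at 0.058 (−0.14 to 0.25), and Rps3, which also acts in DNA repair, at 0.036 (−0.16 to 0.23). Fau and Rps27a, made as fusions to a ubiquitin-like protein and to ubiquitin, had log2 fold changes of −0.017 (−0.20 to 0.17) and close to 0 (−0.21 to 0.21), and both change sign with RLE scaling.

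Rps19 and Rps14, whose loss impairs red cell formation in human anaemias, were at −0.025 (95% interval −0.21 to 0.16) and −0.008 (−0.18 to 0.16). The sign of Rps14 and that of Rpl22 also turn with RLE and with upper quartile scaling. Rpl10, which joins the large subunit late in its assembly, was at 0.063 (−0.14 to 0.27) and Rpl22 at −0.004 (−0.15 to 0.15). Rpl38, needed in the mouse for translation of certain Hox mRNAs, had 100, 100 and 101 CPM in WT and 101, 98.5 and 105 CPM in KO, so its WT libraries were nearly equal. Rps28, Rpl38, Rpl7l1, Rpl24 and Rpl29 had the narrowest intervals of all 89, and that of Rps28 ran from −0.09 to 0.16. Rpl39 and Rpl41, which encode very small proteins, were at −0.023 (−0.19 to 0.15) and −0.029 (−0.17 to 0.11).

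The copies were far less abundant than their partners, apart from a few. Rpl7l1, a protein of ribosome assembly, had 118, 109 and 111 CPM in WT and 111, 111 and 112 CPM in KO, or 17.7% to 19.4% of the count of Rpl7. Rps27l, a target of p53 in other cells, stood at 39.9% to 45.2% of Rps27, Rpl36al at 25.3% to 32.7% of Rpl36a and Rpl22l1 at 23.1% to 26.3% of Rpl22. These are ratios of counts, not of levels per length. Rpl3l, best known from striated muscle, was at 0.0397% to 0.132% of Rpl3, and Rps4l, Rps27rt, Rpl37rt, Rpl6l and Rpl32l were all at or below 1.21% of their partner. Where such a copy is close in sequence to its partner, misassigned reads could make up part of a value this low, and this was not tested.

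The median log2 fold change of the 10 tested copies was −0.067, with 2 above 0 and 8 below. These copies include the annotated pseudogenes Rpl6l, Rpl37rt and Rps4l. Rps27l had 76.1, 82.1 and 77.5 CPM in WT and 68.4, 77.4 and 71.1 CPM in KO. Its lowest WT library lay below its highest KO library, so the genotypes overlapped, and the log2 fold change was −0.12 (95% interval −0.28 to 0.05, unadjusted p = 0.129, edgeR quasi-likelihood test). The extremes were the low copies Rpl39l (−0.31) and Rpl6l (0.24), and with 1 library left out Rpl39l ran from −1.06 without KO library L078 (adjusted p = 0.227, edgeR quasi-likelihood test, Benjamini-Hochberg) to −0.0013 without KO library L081. Rpl22l1 was at −0.071 (−0.24 to 0.09), Rpl36al at −0.058 (−0.27 to 0.15), Rps4l at 0.12 (−0.26 to 0.49) and Rpl37rt at −0.10 (−0.61 to 0.40). Rps19bp1, the gene that encodes no ribosomal protein, was at 0.013 (−0.33 to 0.36).

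Rpl39l varied more between libraries than any other member. It had 3.04, 5.34 and 5.07 CPM in WT libraries K090, L080 and L082 and 2.39, 6.39 and 1.91 CPM in KO libraries K089, L078 and L081, while Rpl39 stayed between 138 and 157 CPM. The SD of Rpl39l over the libraries was 0.718 on the log2 scale after the common shift was removed. The 3 libraries with the higher values, L080, L082 and L078, were also those with more RNA of the osteoblast and stromal markers, whose median deviation was 0.14, 0.52 and 0.73 there and −0.31, −0.55 and −0.59 in K090, K089 and L081. This was seen after the values were known. Of the 8 stromal markers 6 were tested, none was at 0 in every library, and their sum was 881 to 1620 CPM in WT and 638 to 1980 CPM in KO. The part of these cells in the level of Rpl39l was not tested.

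Other genes of translation were set beside the ribosomal proteins, each list by its counts. Of 32 translation factors, 15 were above 0 and 17 below, with a median log2 fold change of −0.0034 and 0 called. Eef1a1, which brings aminoacyl-tRNA to the ribosome, had 5200 ± 195 CPM in WT and 5280 ± 123 CPM in KO, and Eef2, which moves the ribosome along, 3370 ± 104 and 3590 ± 270 CPM (SD, n = 3 each). Of 12 other genes with a TOP motif, 4 were above 0 and 8 below (median −0.024, 0 called). Among them Tpt1 was at 0.21 (95% interval −0.04 to 0.46). A list of 19 regulatory genes held genes for the control of ribosomal protein translation and the transcriptional regulators Myc, Max, Mxd1 and Maf1. Of these 19, 9 were above 0 and 10 below (median −0.0042, 0 called). Mtor was at −0.011 (−0.16 to 0.14) and Larp1 at −0.051 (−0.20 to 0.10).

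Ribosome assembly in the nucleolus was covered by 32 genes. Of these, 8 were above 0 and 24 below, with a median log2 fold change of −0.076 beside −0.023 for all tested genes, 0 called and 1 with an unadjusted p below 0.05. That was Utp4, a protein of small subunit assembly, at 42.8 ± 1.2 CPM in WT and 37.7 ± 2.24 CPM in KO (SD, n = 3 each). Its unadjusted p was 0.0311 and its adjusted p 0.969 (edgeR quasi-likelihood test, Benjamini-Hochberg). The libraries of 5 of the 32 did not overlap, namely Utp4, Bop1, Gnl3, Bysl and Nmd3, all below WT, where 2.81% of all tested genes did so. The nucleolar proteins Npm1, Ncl and Fbl were at −0.067, −0.055 and −0.076. In the same comparison all 8 markers of proliferating cells were below 0 (median −0.244, sums of 782 to 1130 CPM in WT and 501 to 1100 CPM in KO) and all 10 osteoclast markers above 0 (median 0.276, sums of 39900 to 57400 CPM in WT and 44400 to 70400 CPM in KO), with 0 called in either list. The median deviations of the assembly genes were 0.09, −0.04 and 0.04 in WT libraries K090, L080 and L082 and −0.07, 0.02 and −0.06 in KO libraries K089, L078 and L081, and those of the proliferating markers 0.41, −0.02, 0.01, −0.56, 0.36 and −0.23 in the same order. The part of proliferating cells in the assembly genes was not tested. Of 9 genes of the p53 response, 2 were above 0 and 7 below (median −0.073, 0 called), with Cdkn1a at −0.27 (95% interval −0.63 to 0.09) and Mdm2 at −0.034 (−0.18 to 0.12).

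The 78 genes of the mitochondrial ribosome, which translates the few mRNAs made inside mitochondria, are a separate set of like size. Their median log2 fold change was 0.037, with 53 above 0, 25 below and 0 called, and the libraries of 1, Mrpl55, did not overlap. They did not share the library order of the cytosolic genes. Their median deviation was −0.02, −0.09 and 0.05 in WT libraries K090, L080 and L082 and 0.08, −0.12 and 0.07 in KO libraries K089, L078 and L081, a range of 0.205 against 0.107. K089 was thus high for the mitochondrial and low for the cytosolic ribosome. L078 was low for the mitochondrial ribosome and close to the mean for the cytosolic (0.016). K090 and L082 also had opposite signs in the 2 sets, while L080 was low and L081 high in both.

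The shift of the cytosolic genes was small beside that of cell type markers in the same libraries. Osteoclast markers (10 genes) were highest in KO library K089 at 0.43 and lowest in WT library K090 at −0.40. The median of the macrophage markers (8 genes) ran from −1.15 in K089 to 1.03 in K090, with sums of 5060 to 8310 CPM in WT and 5100 to 7850 CPM in KO. Of these markers, Cd68 and Csf1r went the other way. They had 1450 and 1760 CPM in K090 and 2250 and 2100 CPM in K089. Markers of proliferating cells (8 genes) ran from −0.56 in K089 to 0.41 in K090. Genes of the interferon response (9 genes) spanned 3.61 on the log2 scale, from K089 to K090. The 2 libraries highest for cytosolic ribosomal proteins with TMM scaling, K090 and L081, were on opposite sides for all 4 of these lists. With library totals alone the 2 highest were K090 and L078, which were on the same side for all 4, so which libraries go together depends on the scaling. In bulk RNA a different number of cells of a type and a different amount of RNA per cell cannot be told apart, and the part of cell type in the shift was not tested.

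**Figure D5:**
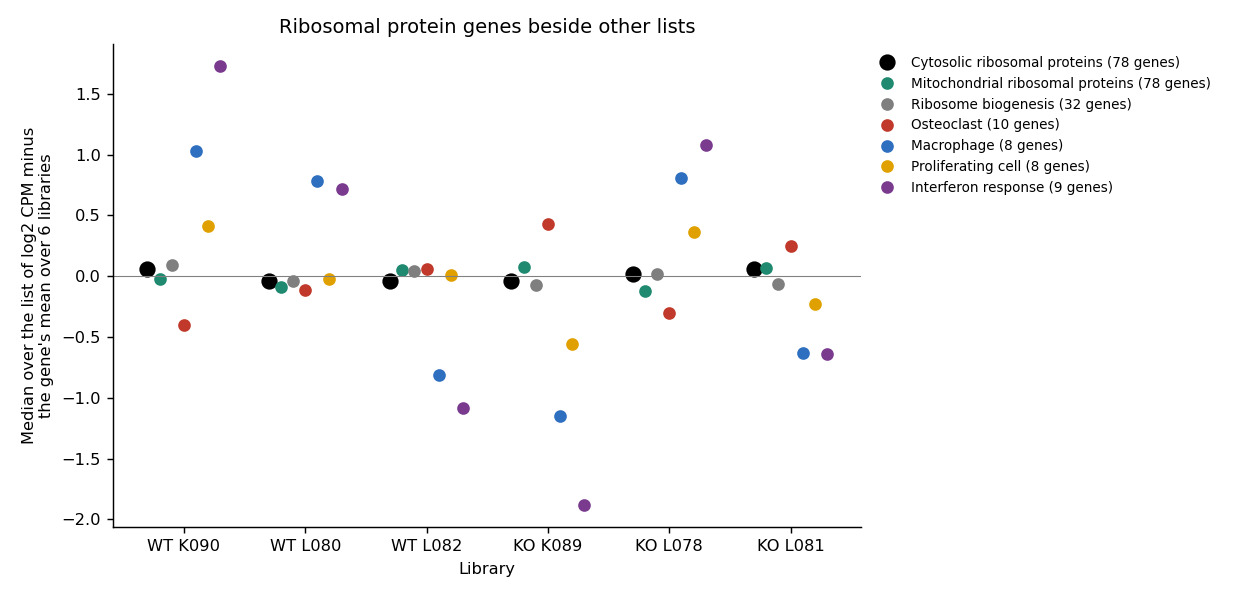
Median deviation from each gene's mean over the 6 libraries (log2 CPM) for the canonical ribosomal protein genes (black) and 6 other lists, by library. The black points stay between −0.045 and 0.062, the mitochondrial and assembly genes lie near them, and interferon and macrophage genes reach 1.73 and 1.03 in WT K090 and −1.88 and −1.15 in KO K089.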

How the data were processed

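RNAseq was sequenced on an Illumina NovaSeq instrument at a facility. The submitters' processing notes name bcl2fastq 2.20.0.422, edgeR 3.30.3 and build mm10. Not given in the sources used here are the aligner, the counting tool, its strand setting and the annotation. Whole-number read counts of 22601 gene symbols were deposited by the authors without normalization. The same table holds the authors' comparison as deposited log2 fold changes and mean log2 CPM, the likelihood ratio as a score, and p-values with FDR, none of which was used. A shorter list of its first rows was also left out, and 0 columns belonged to other samples.

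The members and all gene lists were chosen with earlier results of these data known. Genotypes were compared on the counts with edgeR 4.0.16 under R 4.3.3 (filterByExpr, TMM factors 0.931 to 1.06, glmQLFit, glmQLFTest with genotype as the term, Benjamini-Hochberg adjustment over 13483 genes holding at least 99.94% of the counts), limma 3.58.1 and DESeq2 1.42.0, and tested on simulated data. Intervals are 95% intervals from the estimate, its standard error and 6.35 degrees of freedom. Log2 CPM used a prior count of 2. Deviations, ratios and list medians were computed in Python 3.11.15 and carry no test. Positions and lengths are those of GENCODE M21 on GRCm38, with the shortest principal protein-coding transcript of a gene as its length, and starts are the first RefSeq start listed for a gene. Genes named are those at either end of the fold changes, with libraries that did not overlap, with the narrowest and widest intervals, with the largest residuals, the stalk genes, the copies and members with a known second role. The alternatives were other scalings, other filters, other tests and each library left out in turn. The letter of the animal number as a term was added after seeing the data.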

Additional observations from a re-analysis of the deposited data

How the results depend on the processing

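The call of 0 ribosomal protein genes held under every scaling, filter and test and with each of the 6 libraries left out, and the number of intervals within a 1.5-fold change was 83 or 84. The range of the library medians was between 0.104 and 0.141 under the alternatives other than library totals alone, where it was 0.262. Removing the 10 most abundant genes from the total raised the mean share of counts to 3.37%. Of 437 log2 fold changes of 40 named members under the alternatives, 390 kept their sign and 0 passed the threshold, and the smallest adjusted p was 0.227 (edgeR quasi-likelihood test, Benjamini-Hochberg; Rpl39l, without KO library L078). With an unadjusted p below 0.05 there was 1 member without WT library L082 (Rpl35) and 2 without KO library L078 (Rpl39l and Rps27l). The median over all 89 was 0.0175, and ran from −0.0015 without WT library L080 to 0.0597 without KO library K089. With the letter of the animal number as a term, chosen after seeing the data, it was 0.0185.

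With RLE scaling the sign turned for Fau (0.00166), Rpl22 (0.0143), Rps14 (0.0108) and Rps27a (0.0174), and with upper quartile scaling for Rpl22 (0.00764), Rps14 (0.00355) and Rps27a (0.0118). With 1 library left out at a time the log2 fold change crossed 0 in 20 members, all within 0.105 of 0 with all libraries. The ranges were Fau −0.043 to 0.024, Rpl11 −0.0085 to 0.118, Rpl22 −0.0214 to 0.0505, Rpl24 −0.0397 to 0.018, Rpl29 −0.00555 to 0.0523, Rpl3 −0.144 to 0.0161, Rpl36 −0.00946 to 0.171, Rpl36al −0.103 to 0.00854, Rpl37rt −0.232 to 0.0194, Rpl39 −0.0458 to 0.0293, Rpl3l −0.612 to 0.201, Rpl41 −0.045 to 0.0145, Rpl7l1 −0.0442 to 0.00928, Rplp0 −0.000751 to 0.0729, Rps10 −0.104 to 0.0447, Rps14 −0.0271 to 0.0348, Rps19 −0.0544 to 0.0135, Rps19bp1 −0.0807 to 0.126, Rps27a −0.0381 to 0.0689 and Rps6 −0.0119 to 0.0783. No paired analysis was possible, because neither the sample labels nor the column headings state which KO and WT samples belong together. The headings carry animal numbers and no replicate numbers.

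Counting error is small for the canonical genes, and the 3 libraries per genotype limit the intervals. For the copies at the lowest levels counting error is a larger part of the spread. Reads shared between a gene and its near-identical copies or pseudogenes could not be separated in a table of counts per symbol. The rows marked as pseudogenes by "-ps" summed to 5.81 to 8.49 CPM per library, a sum that leaves out the pseudogenes among the copies.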
